A study of Mus musculus with 12 samples.

Results

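The genes described here encode 7 families of enzymes that handle foreign and endogenous small molecules: cytochromes P450 of families 1 to 4 (Cyp), flavin-containing monooxygenases (Fmo), aldehyde dehydrogenases (Aldh), carboxylesterases (Ces), soluble glutathione transferases (Gst), UDP-glucuronosyltransferases (Ugt) and cytosolic sulfotransferases (Sult). They were chosen by gene symbol among the protein-coding genes of the count table. A gene also had to reach at least 1 CPM (count per 1000000 counts of its column) in 3 or more of the 12 libraries. Of 191 annotated protein-coding genes of these families, 80 met the rule, against 14272 protein-coding genes of the whole table that met the same count rule. The 80 members are 22 Cyp, 20 Gst, 18 Aldh, 8 Ces, 6 Fmo, 4 Sult and 2 Ugt genes, and 60 of the 111 genes left out had no count in any library. Just inside the threshold lay Gstm3, Aldh1a3, Fmo6 and Cyp2t4, whose third-highest libraries held 1.08, 1.13, 1.16 and 1.20 CPM. Just outside it lay Cyp2g1, Cyp2ab1, Cyp2a4 and Ugt1a6a, at 0.926, 0.916, 0.794 and 0.731. The rule reads levels over all libraries, so a gene could enter through normal lung alone: 10 members reached 1 CPM only in normal libraries, and 0 did so only in tumours. Counts over the members are therefore descriptions.

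In textbook terms, phase I enzymes (P450s, Fmo, Aldh and Ces) oxidise or hydrolyse a compound, and phase II enzymes (Gst, Ugt and Sult) attach glutathione, glucuronic acid or sulfate to it so that it can be excreted. P450s draw their electrons from P450 oxidoreductase, and many of the genes are induced through the receptors AHR, CAR and PXR or the factor NRF2. The liver holds most of this capacity, and in mouse lung it is concentrated in the club cells of the airway epithelium, with Fmo and some P450s also found in alveolar and endothelial cells.

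The study measured RNA from LLC tumours (an abbreviation that the labels do not spell out) and from the adjacent normal lung of mice given chronic house dust mite, HDM, or VEH, the label of the comparison treatment, which is not spelled out either. There are 4 groups of 3 libraries: tumours under VEH, tumours under HDM, and normal lung under each. Strain, sex, age and dose are not given in the sources used here, and the pieces were cut out by hand under a microscope, so each library is a mixture of cell types. The labels do not say which animal gave which piece, and p-values measure the spread between these libraries.

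Library totals ran from 20608682 to 32765364 counts. In bulk RNA, fewer cells of a type and less RNA per cell cannot be told apart. Markers of the lung's own cells were present in all 6 normal libraries: the summed level of 12 club-cell genes was 23399 to 103973 CPM, that of 11 alveolar type 2 genes 17642 to 49751 CPM. The hepatocyte marker Alb, which encodes albumin, was at 0.0821 to 0.884 CPM in normal lung, and the sum of 10 hepatocyte markers was 9.46 to 14.3 CPM. Tumours were not alike. The club-cell sum was 532, 21783 and 6521 CPM in tumour VEH 1, 2 and 3, and 1046, 1311 and 15.3 CPM in tumour HDM 1, 2 and 3. Normal VEH 2 stood apart among the normal libraries, with a dividing-cell sum of 212 CPM against 40.2 to 58.3 CPM in the other 5. The library names carry 6 prefixes, each on 1 normal and 1 tumour library, and for 4 libraries the prefix joins different treatment labels, so the counts of calls, and the calls of the main members that depend on it, are also given without them.

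Levels below are CPM on library sizes scaled by TMM, as mean ± SD of 3 libraries or library by library in the order of replicates 1, 2 and 3. Levels of different genes are compared only as CPM per kilobase of the deposited gene length. On that length scale Cyp2f2 was the most abundant member in normal lung, with a median of 3965 over the 6 normal libraries and a range of 1111 to 5972. Aldh1a1 followed at a median of 438, then Gstm1 at 404, Ces1d at 398, Cyp4b1 at 304 and Aldh2 at 204. Among these last 5 the ranges of neighbours in that order overlapped, whereas Gstm1, at 252 or more, lay above Aldh2, at 247 or less, in every normal library. Cyp4b1 also lay above Aldh2 within each normal library, although the ranges of these neighbours overlapped. In tumours the order was different: Gstp1 came first at a median of 96.6, then Gsto1 at 71.3, Aldh2 at 46.3, Gstm1 at 27.5 and Aldh18a1 at 27.4 per kilobase. Cyp2f2 was number 7 of 80 there, at a median of 21.3, with a range from 0.509 to 908.

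The 80 members together took 9181 to 24828 CPM in normal lung and 1149.5 to 5537 CPM in tumours, so the highest tumour lay below the lowest normal library. Cyp2f2 alone made up 24.5% to 48.7% of that sum in normal lung. Normal VEH 2 and normal HDM 1 had the lowest member sums, at 9181 and 9208 CPM, against 17342 CPM or more in the other 4. These 2 libraries held the lowest value of the 6 for 31 and 23 of the 80 members, or 38.8% and 28.8%, whereas they were lowest for 17.8% and 18.3% of all 22190 genes tested. The club-cell sum was also lowest in both, at 25582 and 23399 CPM against 56722 CPM or more elsewhere, as was the ciliated-cell sum, at 1594 and 1705 CPM against 2993 CPM or more. Their part in the member levels was not tested. Among tumours, tumour VEH 2 was the highest library for 55 of the 80 members (68.8%, against 30.3% of all genes tested), and tumour HDM 3 the lowest for 31 (38.8%, against 21.2%).

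**Figure D1:**
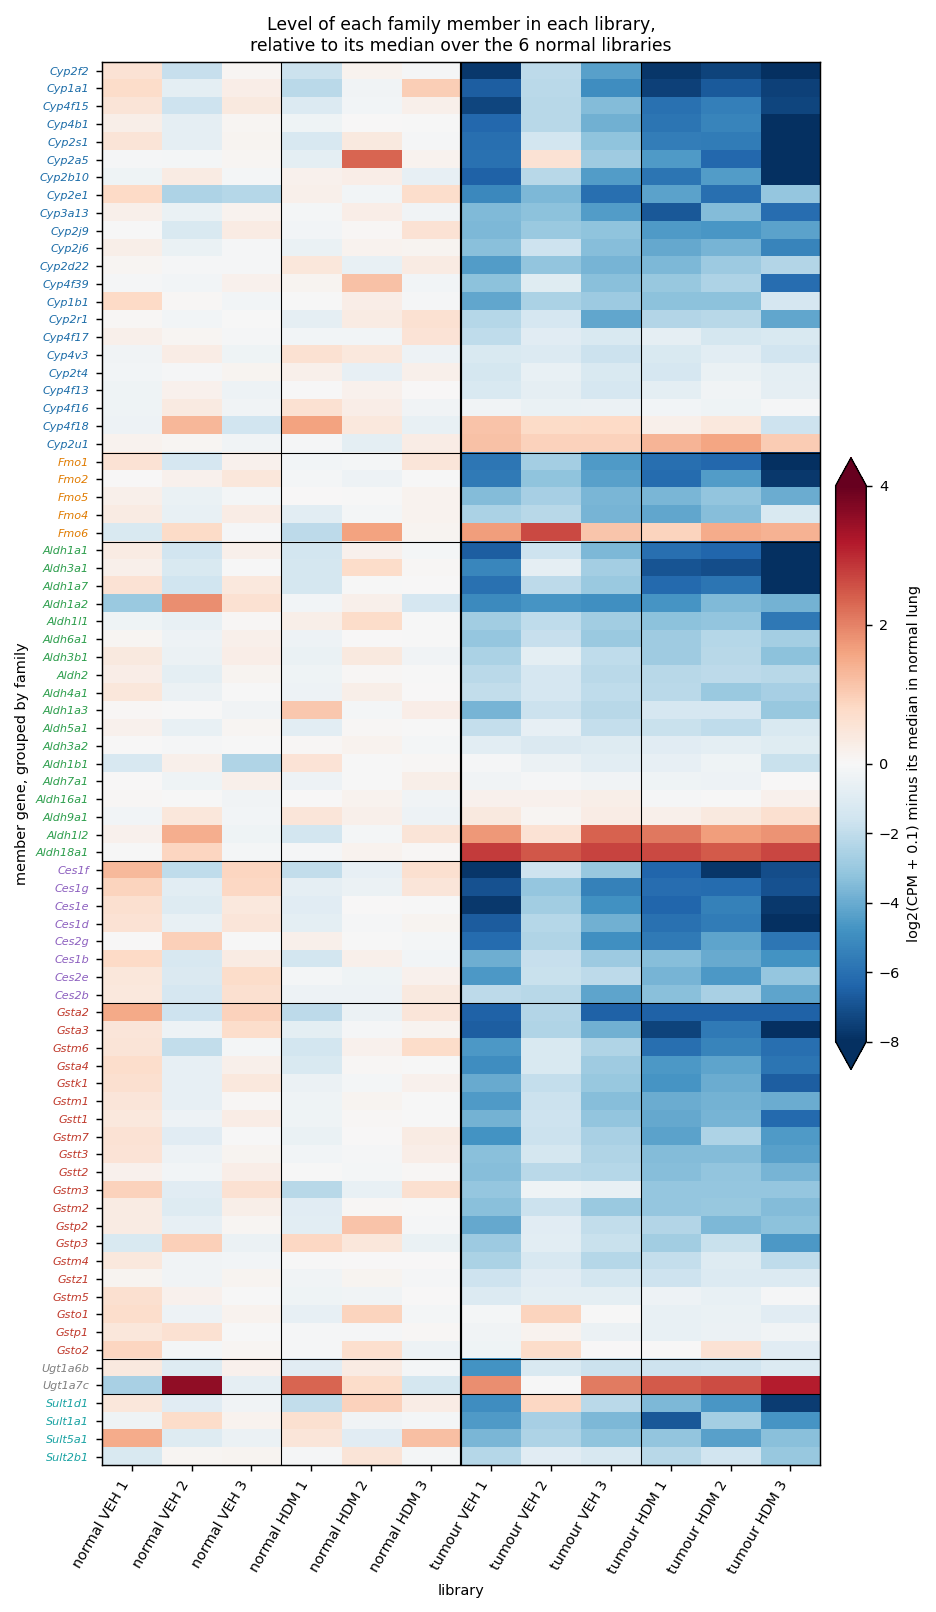
Each row is 1 of 79 members, coloured by family, and each column 1 of the 12 libraries; colour is log2(CPM + 0.1) minus the gene's median over the 6 normal libraries, with blue for lower, red for higher, and colours capped at -8 and 4. Most rows are blue in all 6 tumour columns, palest in tumour VEH 2 and darkest in tumour HDM 3. Aldh18a1, Cyp2u1, Fmo6 and Aldh1l2 are red in all 6, and Aldh9a1 faintly so.

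Most of the families' genes had lower levels in tumours than in adjacent normal lung under either treatment. Under VEH, 48 of the 80 members were called lower in tumours and 2 higher, by edgeR's quasi-likelihood test at an adjusted p below 0.05; over all 22190 genes tested, 20.6% were called lower, 18.2% higher and 38.9% in either direction. Under HDM, 62 members were called lower and 3 higher, where 28.9% of all genes were called lower, 23% higher and 51.9% in either direction. The median log2 fold change of the members was -2.47 under VEH and -3.69 under HDM, against -0.11 and -0.08 for all genes tested. With the 5 members at the counting floor in HDM tumours set to their bound, the HDM median was -3.65. Tumour and normal libraries did not overlap for 62 members under VEH, where 52.4% of all genes did not overlap, and for 70 under HDM, where the share was 63.1%. All 6 tumours lay below all 6 normal libraries for 54 members (67.5%, against 19.9% of all genes tested), and above them for 2 (2.5%, against 16.4%). Among the 56 members that reached 1 CPM in at least 3 tumour libraries, and so did not depend on normal lung to enter, 32 were called lower under VEH (median -1.83) and 40 under HDM (median -2.99).

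The VEH count moved with single libraries. Without tumour VEH 2, 58 members were called in either direction (39.2% of all genes) with a median of -3.38. Without tumour VEH 3 only 26 were called (5947 of all 23174 genes tested), and without tumour VEH 1 only 31 (5733 of 23204). Without the 4 libraries of conflicting prefixes, 22 of the 80 members were called under VEH, a share near that of all genes (5603 of 22414). Under HDM 47 members were then called, against 8505 of 22414 genes. The 28 calls lost under VEH kept their direction, at adjusted p-values of 0.0505 to 0.571, as did the 18 lost under HDM, at 0.0531 to 0.316. Beside the members given below with such a value, the losses under VEH took in Aldh1a3, Aldh1l1, Aldh3b1, Aldh5a1, Ces1b, Ces2e, Cyp2j6, Cyp4f15, Cyp4f17, Fmo4, Gsta3, Gsta4, Gstk1, Gstm7 and Gstt1. Under HDM they took in Aldh1a3, Aldh5a1, Ces2e, Cyp2a5, Cyp2r1, Cyp2s1, Cyp4f17, Cyp4f39, Fmo4, Gstm3 and Gstp2. The HDM count stayed between 60 and 62 when any 1 of its 6 libraries was left out. The calls over all genes then ran from 9822 of 23096 to 10695 of 22993.

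In all, 45 members were called lower in both comparisons and 2 higher in both, 17 lower only under HDM, 3 lower only under VEH (Cyp4f13, Gstm5 and Gstp1), 1 higher only under HDM (Aldh1l2), and 12 in neither. Fold changes are log2 values of tumour over normal lung, ± their standard error. Below, a gene that fell or rose had a lower or higher level in tumours than in normal lung, and none was followed over time. Where 2 stand together with no treatment named, VEH comes first and HDM next. A call under 1 treatment alone does not show a difference between treatments. The difference itself is the interaction term, by which 0 members were called (0% of all genes).

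**Figure D2:**
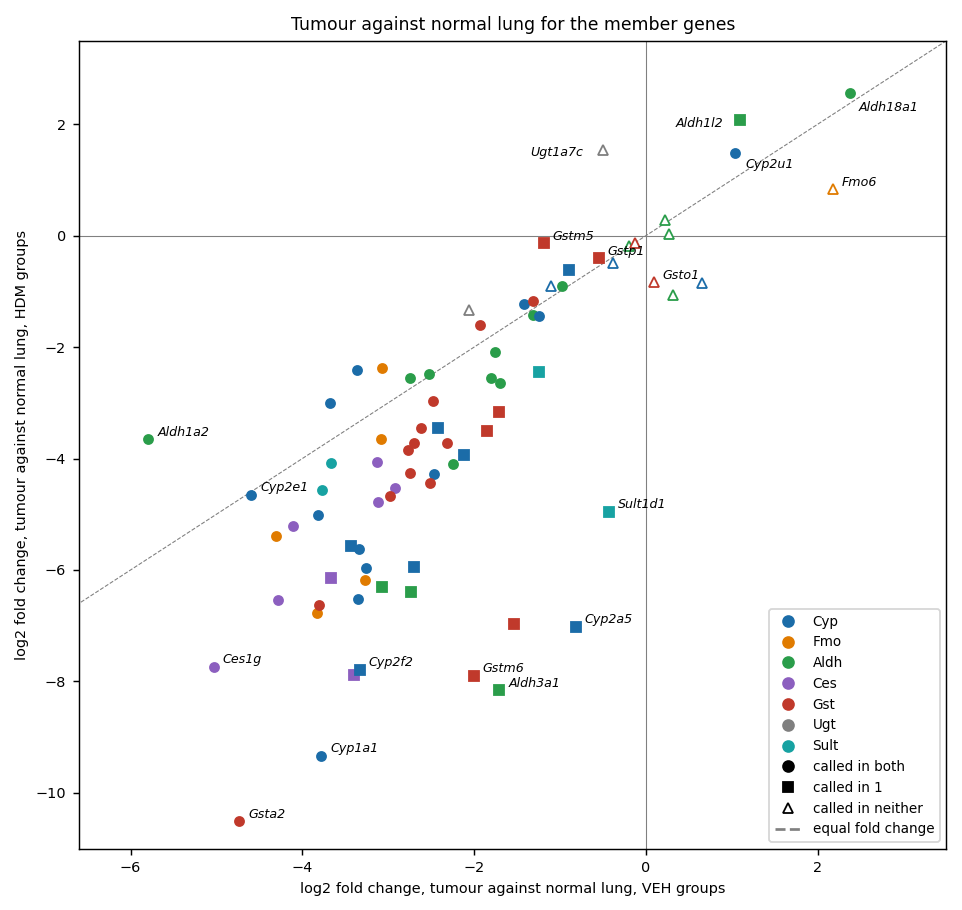
Each point is 1 of the 80 members, placed by its log2 fold change of tumour against normal lung in the VEH groups (horizontal axis) and in the HDM groups (vertical axis), with colour for family and symbol for the number of comparisons in which it was called; the dashed line marks equal fold changes. Most points lie in the lower left and below the line, where the 5 members at the counting floor in HDM tumours (Ces1g, Cyp1a1, Gsta2, Gstm3 and Gstm6) stand at fitted values that are no bound, and Aldh18a1 at the upper right at 2.37 and 2.56.

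Among the 14 P450s of families 1 to 3, which include most drug-metabolising P450s, 7 were called lower and 1 higher under VEH, and 12 lower and 1 higher under HDM, with medians of -3.34 and -4.83. The shares of all genes tested that were called lower were 20.6% under VEH and 28.9% under HDM. Cyp2f2 encodes the club-cell P450 that activates naphthalene. It stood at 12092, 2250.3 and 8519 CPM under VEH and 2413, 8805 and 7541 CPM under HDM in normal lung, and at 38.7, 1838 and 395 CPM under VEH and 36.1, 47.4 and 1.03 CPM under HDM in tumours. Every tumour was below every normal library of its treatment, with tumour VEH 2 closest to the normal range and tumour HDM 3 near 1 CPM. The log2 fold change of Cyp2f2 was -3.33 ± 1.42 (adjusted p = 0.0845) under VEH, which is no call, and -7.79 ± 1.74 (adjusted p = 0.00431) under HDM. DESeq2's Wald test on the same libraries did call it under VEH (-3.36, adjusted p = 0.0101). Without tumour VEH 2 the VEH value by edgeR was -5.13 (adjusted p = 0.0377). Without the 4 libraries of conflicting prefixes the VEH value was -3.36 (adjusted p = 0.266), and the HDM value was -8.09 (adjusted p = 0.0534) and no longer a call. Another gene, Gm15883, overlaps Cyp2f2 on the opposite strand with 347470 counts against 1126438, and whether counting used the strand is not given in the sources used here.

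Cyp2b10, in liver the classic target of the receptor CAR, was not lowest in the same normal libraries as Cyp2f2. It was at 307, 496 and 353 CPM under VEH and 443, 474 and 249.6 CPM under HDM there, with normal VEH 2 and normal HDM 1 among the higher libraries. In tumours it was at 4.38, 85.3 and 17.6 CPM under VEH and 6.90, 17.6 and 0 CPM under HDM, with no overlap under either treatment. The fold change was -3.43 ± 1.37 (adjusted p = 0.0689) under VEH, no call, and -5.58 ± 1.51 (adjusted p = 0.0112) under HDM. DESeq2 called it under VEH (-3.45, adjusted p = 0.0453), and without tumour VEH 2 the edgeR value was -5.13 (adjusted p = 0.0324). Without the 4 libraries of conflicting prefixes, the VEH value was -2.78 (adjusted p = 0.31) and the HDM value -6.94 (adjusted p = 0.06).

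Cyp2a5, an enzyme that oxidises coumarin and nicotine, had 1 normal library far above the rest. Its levels were 67.0, 62.2 and 74.6 CPM under VEH and 41.8, 357 and 78.4 CPM under HDM in normal lung. That library, normal HDM 2, also held the highest levels in normal lung of the airway secretory genes Bpifa1, Reg3g and Muc5b, at 304, 278 and 564 CPM, against at most 39.7, 5.85 and 46.1 CPM in the other 5 normal libraries. The sum of all 12 club-cell genes was not highest there, at 58414 CPM against 103973 and 83258 CPM in normal VEH 1 and 3. Scgb1a1, the defining club-cell marker, was likewise higher in normal VEH 1 and 3. In tumours Cyp2a5 was at 1.02, 105 and 9.78 CPM under VEH and 2.96, 0.820 and 0 CPM under HDM, so tumour VEH 2 lay inside the normal range. The same tumour held 993, 545 and 370 CPM of those 3 genes, and their part in the Cyp2a5 level was not tested. The HDM fold change was -7.02 ± 1.81 (adjusted p = 0.00876), and the VEH value -0.82 ± 1.38 (adjusted p = 0.653). Cyp2a5 shares 98.2% of 1739 aligned bases with Cyp2a4, which had 170 counts in all against 21134, and Gm71933 overlaps it on the opposite strand with 10335 counts.

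Cyp1a1, the best known target gene of the receptor AHR, was scarce in normal lung and nearly absent from tumours. Its normal levels were 29.9, 10.4 and 21.3 CPM under VEH and 3.93, 14.8 and 35.0 CPM under HDM. Tumours held 0.0850, 3.87 and 0.461 CPM under VEH and 0, 0.0683 and 0 CPM under HDM, so that 2 HDM tumours had no count. Against the floor of 3 counts per library, Cyp1a1 was at least 169.6-fold lower in HDM tumours, and at least 88.7-fold lower when normal HDM 3 was left out. Under VEH the log2 fold change was -3.78 ± 1.17 (adjusted p = 0.0281). This call was lost without normal VEH 1, normal VEH 3, tumour VEH 1 or tumour VEH 3, at values of -3.13 to -3.75, and without the 4 libraries of conflicting prefixes (-3.58, adjusted p = 0.152). Cyp1b1, the other member of family 1, fell, with log2 fold changes of -3.36 under VEH (adjusted p = 0.00258) and -2.41 under HDM (adjusted p = 0.00657). It had more counts than Cyp1a1 in tumours, at 1.44, 4.76 and 3.60 CPM under VEH and 2.79, 2.73 and 10.9 CPM under HDM, and its HDM call was lost without the 4 libraries of conflicting prefixes (-2.06).

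The promoters of Cyp1a1 and Cyp2f2 are printed because the former gene was at the floor in HDM tumours and the latter was the most abundant member. The sequences are those of RefSeq on GRCm38.p6, 250 bases before to 50 bases after the annotated start, 5′ to 3′ on the gene's own strand. Capitals mark matches on either strand to GCGTG, the core letters of the element that AHR binds, or to the other motifs searched, TGACNNNGC, the core of the antioxidant response element bound by NRF2, and TGATGNAA, a form of the composite site bound by ATF4. The Cyp1a1 promoter (chr9:57697363-57697662, plus strand) holds 1 match to GCGTG, at base 197. The Cyp2f2 promoter (chr7:27119705-27120004, plus strand) holds no match to any of the 3 motifs.
Cyp1a1: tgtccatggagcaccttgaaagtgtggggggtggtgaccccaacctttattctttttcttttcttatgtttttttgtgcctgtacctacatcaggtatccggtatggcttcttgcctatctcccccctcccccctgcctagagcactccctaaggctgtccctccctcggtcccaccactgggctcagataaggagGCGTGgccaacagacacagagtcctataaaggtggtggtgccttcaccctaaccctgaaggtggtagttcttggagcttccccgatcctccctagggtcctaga
Cyp2f2: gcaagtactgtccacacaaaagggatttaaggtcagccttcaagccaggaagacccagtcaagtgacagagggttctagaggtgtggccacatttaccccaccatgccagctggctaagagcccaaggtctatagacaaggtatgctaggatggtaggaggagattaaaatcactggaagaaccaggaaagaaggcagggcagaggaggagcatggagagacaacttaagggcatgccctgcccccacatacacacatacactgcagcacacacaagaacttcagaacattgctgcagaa
Over all 32851 promoters of that length in the table, 32.4% hold GCGTG, 12.4% TGACNNNGC and 3.97% TGATGNAA. Of the 77 promoters of the 64 members found in the table, 29.9% hold GCGTG, 10.4% TGACNNNGC and 1.3% TGATGNAA. A match is a description of letters in this window, not of binding.

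Other P450s of these families fell in both comparisons. Cyp2e1, which oxidises ethanol, was at 11.4, 1.07 and 1.26 CPM under VEH and 7.45, 5.66 and 10.6 CPM under HDM in normal lung, where 2 of the VEH libraries were near 1 CPM. Its tumour levels were 0.0850, 0.446 and 0 CPM under VEH and 0.246, 0 and 0.667 CPM under HDM, and it fell, with log2 fold changes of -4.60 under VEH (adjusted p = 0.0266) and -4.65 under HDM (adjusted p = 0.016). The VEH call was lost without normal VEH 1, tumour VEH 1 or tumour VEH 3 (-2.63 to -4.17), and the HDM call without tumour HDM 1 (-4.44). Cyp2d22, a mouse relative of the human drug-metabolising CYP2D6, was steadier, at 35.8, 31.5 and 30.8 CPM under VEH and 46.0, 22.0 and 42.3 CPM under HDM in normal lung and 1.44, 3.72 and 2.49 CPM under VEH and 2.71, 4.34 and 6.61 CPM under HDM in tumours. Its log2 fold changes were -3.67 ± 0.44 (adjusted p = 0.000445) under VEH and -3.01 ± 0.42 (adjusted p = 0.000365) under HDM, and tumour HDM 3, the lowest tumour for 31 members, was its highest. Cyp2j6 and Cyp2j9, which epoxidise fatty acids, fell, with log2 fold changes of -2.46 and -3.34 under VEH and -4.27 and -5.62 under HDM. Cyp3a13 fell, with log2 fold changes of -3.81 and -5.01. Cyp2s1 and Cyp2r1, the latter a vitamin D hydroxylase, were called lower only under HDM (-5.94 and -3.45; VEH -2.70 and -2.42), and Cyp2t4 in neither (-1.10 and -0.90). DESeq2 called these 3 under VEH as well, at adjusted p-values of 0.0147, 0.0315 and 0.048.

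Cyp2u1, a P450 that hydroxylates long-chain fatty acids, was the only member P450 called higher in tumours. It was at 2.87, 2.74 and 2.15 CPM under VEH and 2.46, 1.47 and 3.24 CPM under HDM in normal lung and 5.91, 4.98 and 5.03 CPM under VEH and 6.82, 7.92 and 5.31 CPM under HDM in tumours, so that all 6 tumours lay above all 6 normal libraries. The fold changes were 1.03 ± 0.33 (adjusted p = 0.0304) under VEH and 1.48 ± 0.33 (adjusted p = 0.00417) under HDM. The VEH call was lost when any of the 6 VEH libraries except tumour VEH 2 was left out, at values of 0.92 to 1.16, and without the 4 libraries of conflicting prefixes (1.22, adjusted p = 0.087).

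Of the 8 members of family Cyp4, fatty acid and eicosanoid hydroxylases, 5 fell under each treatment, with medians of -1.33 in both. Of all genes tested, 20.6% were called lower under VEH and 28.9% under HDM. Cyp4b1, a lung P450 that activates the toxin ipomeanol, was at 811, 418 and 729.9 CPM under VEH and 538, 693 and 679.6 CPM under HDM in normal lung. In tumours it was at 8.75, 148 and 47.2 CPM under VEH and 11.7, 17.6 and 1.40 CPM under HDM, with no overlap. It fell, with log2 fold changes of -3.26 ± 0.98 (adjusted p = 0.0246) under VEH and -5.96 ± 1.12 (adjusted p = 0.00174) under HDM. The VEH call was lost without normal VEH 1, normal VEH 3, tumour VEH 1 or tumour VEH 3 (-2.64 to -3.17), and without the 4 libraries of conflicting prefixes (-3.19, adjusted p = 0.152). Cyp4f15 had log2 fold changes of -3.35 ± 1.19 (adjusted p = 0.0466) under VEH and -6.52 ± 1.45 (adjusted p = 0.00423) under HDM. Cyp4v3 and Cyp4f17 fell as well, with log2 fold changes of -1.24 and -1.41 under VEH and -1.44 and -1.23 under HDM, the VEH call of Cyp4v3 being lost without tumour VEH 3 (-0.98). Cyp4f39 was called lower under HDM (-3.93), and Cyp4f13 under VEH (-0.89; -0.61 under HDM, adjusted p = 0.0591). The Cyp4f13 call under VEH was lost without normal VEH 2, tumour VEH 1 or tumour VEH 3 (-0.68 to -0.72), and without the 4 libraries of conflicting prefixes (-0.45, adjusted p = 0.236). Under HDM it was called by DESeq2 (-0.68, adjusted p = 0.0178) and in several other fits, among them that with the replicate block (-0.64, adjusted p = 0.0201) and that on the compared groups alone (-0.65, adjusted p = 0.0421). Cyp4f16 was not called, at 17.6 to 34.3 CPM in normal lung and 15.1 to 20.6 CPM in tumours. Cyp4f18, which inactivates leukotriene B4 in myeloid cells, was not called either, at 9.24, 30.9 and 4.17 CPM under VEH and 37.6, 16.4 and 8.14 CPM under HDM in normal lung and 27.0, 21.0 and 21.7 CPM under VEH and 14.1, 16.7 and 3.82 CPM under HDM in tumours. Its 2 highest normal libraries, normal VEH 2 and normal HDM 1, held 9569 and 12521 CPM of the 10 macrophage markers, but normal HDM 2, with 12848 CPM of them, was at 16.4 CPM of Cyp4f18.

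Among the flavin-containing monooxygenases, which oxidise nitrogen and sulfur atoms, Fmo1, Fmo2, Fmo4 and Fmo5 fell under each treatment and Fmo6 was not called. Fmo2, the main form of lung, was at 730.3, 816 and 986 CPM under VEH and 641, 553 and 712 CPM under HDM in normal lung, a highest-to-lowest ratio below that of Cyp2f2 or Aldh1a1. Tumours held 14.2, 78.9 and 35.3 CPM under VEH and 10.1, 32.1 and 3.37 CPM under HDM. It fell, with log2 fold changes of -4.30 ± 0.81 (adjusted p = 0.00306) under VEH and -5.39 ± 0.85 (adjusted p = 0.000727) under HDM. Fmo1 was at 338, 89.0 and 252 CPM under VEH and 193, 203 and 318 CPM under HDM in normal lung and 3.99, 33.8 and 9.78 CPM under VEH and 3.37, 2.80 and 0.425 CPM under HDM in tumours, and it fell, with log2 fold changes of -3.83 (adjusted p = 0.00805) under VEH and -6.77 (adjusted p = 0.000585) under HDM. The VEH call of Fmo1 was lost without the 4 libraries of conflicting prefixes (-3.86, adjusted p = 0.0684). Fmo5 fell, with log2 fold changes of -3.09 ± 0.33 (adjusted p = 0.000331) under VEH and -3.65 ± 0.34 (adjusted p = 9.0e-05) under HDM, with the smallest adjusted p of all members under HDM, and Fmo4 with -3.07 and -2.38. Fmo6, of unclear function, was at 0 to 1.21 CPM in normal lung and 0.698 to 2.57 CPM in tumours, with log2 fold changes of 2.18 ± 1.08 (adjusted p = 0.129) under VEH and 0.83 ± 1.05 (adjusted p = 0.527) under HDM. All 3 VEH tumours were above the VEH normal libraries, whereas the HDM groups overlapped.

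Aldehyde dehydrogenases are given by role. Of 10 members that oxidise retinal, lipid or foreign aldehydes or have no assigned role in amino acid or folate metabolism, 5 fell under VEH and 8 under HDM, and 0 rose. The shares over all genes were 20.6% lower and 18.2% higher under VEH, and 28.9% and 23% under HDM. Aldh1a1, which makes retinoic acid, was at 2674, 732 and 2446 CPM under VEH and 772, 2405 and 1916 CPM under HDM in normal lung. The tumour levels were 22.3, 680.5 and 179 CPM under VEH and 32.4, 26.9 and 1.09 CPM under HDM. Its fold change was -2.73 ± 1.24 (adjusted p = 0.102) under VEH, no call, and -6.40 ± 1.47 (adjusted p = 0.00495) under HDM. DESeq2 called it under VEH (-2.76, adjusted p = 0.0226). Without tumour VEH 2 the VEH value by edgeR was -4.27 (adjusted p = 0.0416). Without the 4 libraries of conflicting prefixes the VEH value was -2.76 (adjusted p = 0.305) and the HDM value -6.42 (adjusted p = 0.0666). Aldh1a7, a close relative of Aldh1a1 (88.9% identity over 2081 aligned bases), had a similar pair of values, -3.07 ± 1.13 (adjusted p = 0.053) under VEH and -6.31 ± 1.33 (adjusted p = 0.00322) under HDM, and DESeq2 called it under VEH too (adjusted p = 0.00861). Without those 4 libraries the VEH value of Aldh1a7 by edgeR was -3.42 (adjusted p = 0.173). Reads of these 2 genes may be split between them in the deposited counts.

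Aldh1a2, also a retinoic acid enzyme, had a different pattern across the normal libraries. It was at 5.09, 149 and 62.2 CPM under VEH and 35.6, 46.8 and 15.8 CPM under HDM, and at 1.10, 1.49 and 1.29 CPM under VEH and 1.48, 3.42 and 2.88 CPM under HDM in tumours. The range within normal VEH was thus from 5.09 to 149 CPM, and every tumour was lower than every normal library. It fell, with log2 fold changes of -5.79 ± 1.03 (adjusted p = 0.00239) under VEH, the largest VEH fall of the members, and -3.65 ± 0.93 (adjusted p = 0.0081) under HDM. The mesothelial marker Upk3b was at 0.904, 216 and 224 CPM in the 3 normal VEH libraries and 48.8, 133 and 36.8 CPM in the 3 normal HDM libraries, and Wt1 at 0, 37.2 and 9.26 CPM in the former and 8.27, 5.59 and 1.84 CPM in the latter. The summed level of all 8 mesothelial markers was 338 to 1663 CPM in normal lung, lowest in normal VEH 1 and highest in normal VEH 2 like Aldh1a2, and 24.6 to 211 CPM in tumours. The part of these markers in the result was not tested.

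Aldh2, the mitochondrial enzyme that clears acetaldehyde, fell in both comparisons and had the third highest median per kilobase in tumours. It was at 1265, 601 and 1129 CPM under VEH and 821, 1088 and 1006 CPM under HDM in normal lung and 238, 411 and 236 CPM under VEH and 221, 242 and 226 CPM under HDM in tumours, with log2 fold changes of -1.76 ± 0.29 (adjusted p = 0.00158) under VEH and -2.08 ± 0.30 (adjusted p = 0.000382) under HDM. Aldh3a1 was at 46.9, 17.6 and 40.1 CPM under VEH and 15.3, 69.2 and 42.1 CPM under HDM in normal lung and 1.02, 24.7 and 6.27 CPM under VEH and 0.246, 0.205 and 0 CPM under HDM in tumours. Tumour VEH 2 lay inside the normal range, and the VEH value of -1.71 ± 0.97 (adjusted p = 0.177) was no call, while the HDM value was -8.16 ± 1.38 (adjusted p = 0.000998). Its neighbour Aldh3a2, a fatty aldehyde dehydrogenase, moved little but evenly, from 100.5 to 121 CPM in normal lung to 49.0 to 62.5 CPM in tumours, and fell, with log2 fold changes of -0.98 (adjusted p = 0.000508) under VEH and -0.91 (adjusted p = 0.000296) under HDM. Aldh3b1 fell, with log2 fold changes of -1.70 and -2.64 and the scarce Aldh1a3 with -2.75 and -2.56. Aldh1b1 and Aldh16a1 were not called, at 0.32 and 0.26 under VEH and -1.07 and 0.03 under HDM.

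Of the 8 aldehyde dehydrogenases of amino acid, carnitine and folate metabolism, 4 fell and 1 rose under VEH, and 4 fell and 2 rose under HDM. The shares over all genes were 20.6% lower and 18.2% higher under VEH, and 28.9% and 23% under HDM. Aldh18a1, which makes the precursor of proline from glutamate, was the highest riser. It was at 17.1, 32.4 and 15.7 CPM under VEH and 16.8, 19.5 and 18.3 CPM under HDM in normal lung and 124, 98.7 and 115 CPM under VEH and 109.8, 97.5 and 113 CPM under HDM in tumours. Every tumour was at least 97.5 CPM and every normal library at most 32.4 CPM, the latter in normal VEH 2, which also had the highest dividing-cell sum of the normal libraries, whose part in the level was not tested. The log2 fold changes were 2.37 ± 0.25 (adjusted p = 0.000331) under VEH and 2.56 ± 0.25 (adjusted p = 9.8e-05) under HDM. Aldh4a1, which works in the opposite direction by breaking proline down, fell, with log2 fold changes of -1.80 ± 0.31 (adjusted p = 0.00197) under VEH and -2.55 ± 0.32 (adjusted p = 0.000227) under HDM. Gm58925 overlaps Aldh18a1 on the opposite strand with 7883 counts against 20565.

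Aldh1l2, the mitochondrial enzyme that oxidises formyl-tetrahydrofolate, was at 2.55, 6.36 and 1.77 CPM under VEH and 0.737, 1.96 and 3.24 CPM under HDM in normal lung and 7.65, 3.42 and 11.9 CPM under VEH and 9.94, 7.38 and 7.98 CPM under HDM in tumours. It rose under HDM, by 2.08 ± 0.64 (adjusted p = 0.0188), and the VEH groups overlapped (1.10 ± 0.62, adjusted p = 0.174). The HDM call was lost without normal HDM 1 (1.69) or normal HDM 2 (2.08). Nopchap1, on the opposite strand, overlaps it with 14048 counts against 1715. Its cytosolic counterpart Aldh1l1 fell, with log2 fold changes of -2.25 ± 0.56 (adjusted p = 0.0107) under VEH and -4.09 ± 0.61 (adjusted p = 0.000484) under HDM. Aldh6a1 of valine breakdown fell, with log2 fold changes of -2.52 and -2.47, and Aldh5a1, which degrades GABA, with log2 fold changes of -1.31 and -1.42. Aldh7a1 of lysine breakdown and Aldh9a1 of carnitine synthesis were not called, with fold changes of -0.20 and 0.23 under VEH and -0.18 and 0.27 under HDM.

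The Aldh18a1 promoter is printed as that of the member with the largest rise in both comparisons. RefSeq places it at chr19:40588414-40588713, minus strand, on GRCm38.p6. It holds 3 matches to GCGTG or its reverse complement, at bases 49, 200 and 246, in capitals, and none to the other 2 motifs.
Aldh18a1: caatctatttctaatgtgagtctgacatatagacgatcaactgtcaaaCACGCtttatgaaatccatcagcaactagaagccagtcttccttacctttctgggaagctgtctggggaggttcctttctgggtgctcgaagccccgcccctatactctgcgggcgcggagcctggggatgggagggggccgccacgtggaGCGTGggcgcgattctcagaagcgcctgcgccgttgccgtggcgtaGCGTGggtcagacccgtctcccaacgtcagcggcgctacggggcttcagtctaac

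All 8 carboxylesterases, which hydrolyse esters of drugs and lipids, had lower levels in tumours: 6 were called under VEH and all 8 under HDM, with medians of -3.53 and -5.67. Of all genes tested, 20.6% were called lower under VEH and 28.9% under HDM. Ces1d, a lipid hydrolase and the most abundant per kilobase, was at 1398, 626 and 1321 CPM under VEH and 549.6, 877 and 1011 CPM under HDM in normal lung. Tumours held 9.35, 190.5 and 64.7 CPM under VEH and 14.6, 19.8 and 0.0607 CPM under HDM, where tumour VEH 2 had the most and tumour HDM 3 had 2 counts. The fold changes were -3.66 ± 1.34 (adjusted p = 0.0517) under VEH, no call by edgeR but one by DESeq2 (adjusted p = 0.0143), and -6.15 ± 1.51 (adjusted p = 0.00688) under HDM. Without the 4 libraries of conflicting prefixes the VEH value was -3.66 (adjusted p = 0.23) and the HDM value -6.47 (adjusted p = 0.0748). Ces1e fell, with log2 fold changes of -4.29 ± 1.20 (adjusted p = 0.0187) under VEH and -6.53 ± 1.39 (adjusted p = 0.00339) under HDM, and its VEH call was lost without tumour VEH 3 (-3.90) and without those 4 libraries (-4.26, adjusted p = 0.11). Ces1g fell, with log2 fold changes of -5.03 ± 1.11 (adjusted p = 0.00627) under VEH, lost without those 4 libraries (-4.93, adjusted p = 0.0547), and under HDM it was at least 104.6-fold lower against the floor. Without normal HDM 3 this bound was 76.3-fold. Ces1f was called only under HDM (-7.88 ± 1.79, adjusted p = 0.0047; VEH -3.40 ± 1.33, adjusted p = 0.0646), and not without the 4 libraries of conflicting prefixes (-6.32, adjusted p = 0.0613). Ces2g ran the other way within normal lung, highest in normal VEH 2: 25.5, 49.0 and 24.4 CPM under VEH and 29.1, 25.4 and 22.5 CPM under HDM. It was at 0.255, 4.69 and 0.738 CPM under VEH and 0.411, 1.30 and 0.364 CPM under HDM in tumours and fell, with log2 fold changes of -4.11 ± 0.90 (adjusted p = 0.00619) under VEH and -5.20 ± 0.96 (adjusted p = 0.00162) under HDM, the former lost without the 4 libraries (-3.22, adjusted p = 0.0746). Ces1b, Ces2b and Ces2e, all under 5 CPM, fell, with log2 fold changes of -3.12, -3.13 and -2.92 under VEH and -4.77, -4.06 and -4.52 under HDM.

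Of the 20 glutathione transferases, 14 fell under VEH and 16 under HDM, with medians of -2.16 and -3.61, and 0 rose. The shares over all genes were 20.6% lower and 18.2% higher under VEH, and 28.9% and 23% under HDM. In the alpha class, Gsta2 was at the counting floor in HDM tumours. It was at 25.7, 2.77 and 16.8 CPM under VEH and 1.97, 6.34 and 12.4 CPM under HDM in normal lung. In tumours it was at 0, 1.64 and 0 CPM under VEH, and no HDM tumour had a count. Against the floor it was at least 65.4-fold lower under HDM, and at least 39.4-fold lower without normal HDM 3. The VEH value was -4.74 ± 1.60 (adjusted p = 0.0454), a call lost without normal VEH 1, normal VEH 3, tumour VEH 1 or tumour VEH 3 (-4.06 to -4.65), and without the 4 libraries of conflicting prefixes (-4.57, adjusted p = 0.104). Gsta2 shares 98.1% of 885 aligned bases with Gsta5, which had 16 counts in all against 1708. Gsta3 fell, with log2 fold changes of -3.81 ± 1.01 (adjusted p = 0.015) under VEH and -6.63 ± 1.17 (adjusted p = 0.00128) under HDM, and Gsta4, which conjugates the lipid aldehyde hydroxynonenal, with log2 fold changes of -2.51 ± 0.80 (adjusted p = 0.0311) under VEH and -4.45 ± 0.88 (adjusted p = 0.0023) under HDM.

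The Gsta2 promoter is printed as that of the member with 0 counts in all 3 HDM tumours. RefSeq places it at chr9:78347096-78347395, minus strand, on GRCm38.p6. It holds 1 match to GCGTG, at base 244, in capitals, and none to the other 2 motifs.
Gsta2: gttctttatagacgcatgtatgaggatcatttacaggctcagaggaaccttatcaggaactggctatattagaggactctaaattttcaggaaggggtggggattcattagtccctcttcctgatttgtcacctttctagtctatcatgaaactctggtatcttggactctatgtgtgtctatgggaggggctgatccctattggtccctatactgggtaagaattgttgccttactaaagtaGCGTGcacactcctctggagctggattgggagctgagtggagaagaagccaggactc

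The mu class held the most abundant transferase per kilobase in normal lung, Gstm1. It was at 832, 371 and 616 CPM under VEH and 472, 646 and 575 CPM under HDM in normal lung and 25.9, 184 and 56.2 CPM under VEH and 38.2, 42.7 and 37.4 CPM under HDM in tumours. The 3 HDM tumours were within 37.4 to 42.7 CPM, tumour HDM 3 included, and the log2 fold changes were -2.77 ± 0.60 (adjusted p = 0.0056) under VEH and -3.84 ± 0.63 (adjusted p = 0.000835) under HDM. The VEH call of Gstm1 was lost without the 4 libraries of conflicting prefixes (-2.68, adjusted p = 0.0653). Gstm2, Gstm4 and Gstm7 fell as well, with log2 fold changes of -2.48, -1.93 and -2.70 under VEH and -2.96, -1.60 and -3.73 under HDM. Gstm6 was called only under HDM, where it was at least 62.8-fold lower against the floor, and Gstm3 likewise, at least 5.53-fold lower. Without normal HDM 3 the bounds were 44.3-fold for Gstm6 and 2.53-fold for Gstm3. Gstm5, a form known from brain and testis, had the smallest fold changes of the 7 mu members. It was at 10.8, 7.80 and 6.74 CPM under VEH and 5.32, 5.51 and 7.0 CPM under HDM in normal lung and 3.23, 3.94 and 3.97 CPM under VEH and 5.17, 4.51 and 6.55 CPM under HDM in tumours, and it fell, with log2 fold changes of -1.19 ± 0.28 (adjusted p = 0.00782) under VEH but not under HDM (-0.14 ± 0.27, adjusted p = 0.7), where the sign depended on the scaling: with library size only the HDM value was 0.035. The VEH call of Gstm5 was lost without the 4 libraries (-1.19, adjusted p = 0.0593).

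In the pi class, Gstp1, the member with the highest median per kilobase in tumours, was at 265, 295 and 184 CPM under VEH and 180.3, 178 and 199.9 CPM under HDM in normal lung and 158, 209 and 141 CPM under VEH and 127, 136 and 158 CPM under HDM in tumours. The fold changes were -0.55 ± 0.20 (adjusted p = 0.0483) under VEH, with overlapping groups, and -0.41 ± 0.20 (adjusted p = 0.107) under HDM. The VEH call was lost without normal VEH 1, normal VEH 2, tumour VEH 1 or tumour VEH 3 (-0.35 to -0.50), and without the 4 libraries of conflicting prefixes (-0.19, adjusted p = 0.571). Gstp2 and Gstp3 were called lower under HDM (-3.50 ± 0.85, adjusted p = 0.00618 and -3.17 ± 0.88, adjusted p = 0.0121) and not under VEH (-1.85 and -1.70), where DESeq2 called Gstp2 (adjusted p = 0.0373). Gstp2 shares 94.3% of 807 aligned bases with Gstp1, which had 59403 counts against 1080, so some Gstp2 counts may belong to Gstp1. The omega members Gsto1 and Gsto2 were not called. Gsto1 was at 299.7, 139 and 205 CPM under VEH and 117, 341 and 165 CPM under HDM in normal lung and 163, 343 and 180.5 CPM under VEH and 124, 125 and 99.8 CPM under HDM in tumours, with log2 fold changes of 0.09 ± 0.42 (adjusted p = 0.872) under VEH and -0.83 ± 0.42 (adjusted p = 0.121) under HDM, and Gm59209 overlaps it on the opposite strand with 20164 counts against 59888. The theta members Gstt1, Gstt2 and Gstt3 fell, with log2 fold changes of -2.74, -2.62 and -2.32 under VEH and -4.26, -3.45 and -3.73 under HDM, mitochondrial Gstk1 with -2.98 and -4.67, and Gstz1, an enzyme of tyrosine breakdown, with log2 fold changes of -1.31 and -1.17.

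Few glucuronosyltransferases and sulfotransferases were expressed. Both Ugt members belong to the Ugt1a locus (chr1:88022726-88147724 on GRCm39), whose genes share their last exons, so reads from those exons cannot be assigned to 1 gene, and Gm20528 overlaps them on the opposite strand with 14946 counts against 4901 for Ugt1a7c. Ugt1a7c was at 0.493, 41.7 and 2.06 CPM under VEH and 18.1, 5.93 and 1.25 CPM under HDM in normal lung. The tumour levels were 12.9, 3.50 and 15.0 CPM under VEH and 19.5, 22.0 and 31.5 CPM under HDM, with tumour HDM 3 above every library except normal VEH 2. The HDM groups did not overlap, but neither test made a call (-0.50 ± 1.29, adjusted p = 0.774 and 1.53 ± 1.32, adjusted p = 0.35). Without normal VEH 2 the VEH value was 3.03 (adjusted p = 0.0584). Ugt1a6b, at most 3.53 CPM, had fold changes of -2.06 under VEH and -1.33 under HDM with no call by edgeR, while DESeq2 called the former (adjusted p = 0.0326).

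Of the 4 sulfotransferases, 2 fell under VEH and all 4 under HDM, where 20.6% and 28.9% of all genes were called lower. Sult1a1, which conjugates phenols, was at 30.1, 63.1 and 41.6 CPM under VEH and 60.1, 31.2 and 35.0 CPM under HDM in normal lung, highest in normal VEH 2 and normal HDM 1. In tumours it was at 1.53, 5.88 and 3.14 CPM under VEH and 0.246, 5.81 and 1.33 CPM under HDM, and it fell, with log2 fold changes of -3.67 ± 0.89 (adjusted p = 0.0097) under VEH and -4.09 ± 0.91 (adjusted p = 0.00413) under HDM. Sgf29 overlaps it on the opposite strand with 5222 counts against 7454. Sult5a1, of unclear substrate, fell, with log2 fold changes of -3.78 ± 0.88 (adjusted p = 0.00753) under VEH and -4.56 ± 0.91 (adjusted p = 0.00226) under HDM. Sult1d1, which acts on catecholamines, was at 26.6, 10.4 and 15.7 CPM under VEH and 4.92, 36.9 and 23.9 CPM under HDM in normal lung and 0.510, 34.2 and 4.34 CPM under VEH and 1.48, 0.683 and 0 CPM under HDM in tumours, so that tumour VEH 2 lay at the upper end of the normal range. Its HDM fold change was -4.95 ± 1.56 (adjusted p = 0.0222), a call lost without normal HDM 2, tumour HDM 2 or tumour HDM 3 (-4.18 to -4.77), or without the 4 libraries of conflicting prefixes (-4.71, adjusted p = 0.159), and the VEH value was -0.43 ± 1.30 (adjusted p = 0.807). Sult2b1, a cholesterol sulfotransferase, was called under HDM (-2.45) and not under VEH (-1.25).

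**Figure D3:**
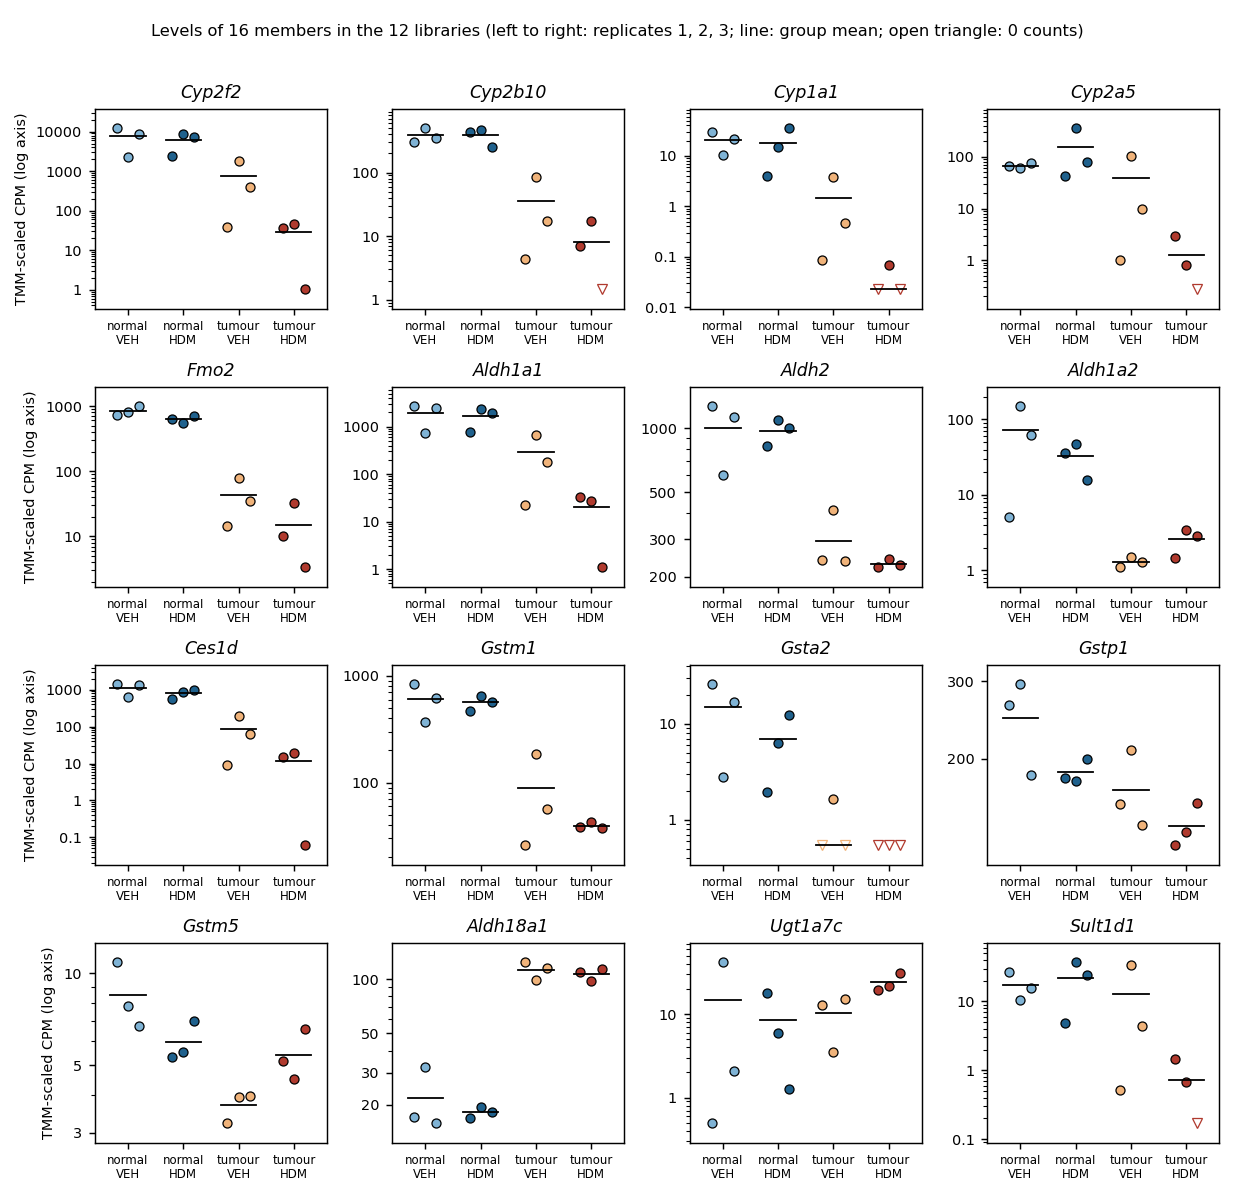
TMM-scaled CPM of 16 members on log axes that differ between panels, with 1 point per library in the order of replicates 1, 2 and 3 within each of the 4 groups, a line at each group's mean, and open triangles at the foot of the panel for libraries with 0 counts. Tumour VEH 2 is the highest tumour in most panels and tumour HDM 3 the lowest for Cyp2f2, Aldh1a1 and Ces1d, whereas Aldh18a1 lies higher in all tumours and the VEH groups of Gstp1 overlap.

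Whether HDM changed these enzymes was asked within each tissue. In normal lung, edgeR's test called 0 of the 80 members (0% of all genes), none had an unadjusted p below 0.05, and DESeq2's Wald test called 0 as well. The median log2 fold change of the members was -0.10, and the HDM and VEH libraries did not overlap for 1 member, Fmo2 (10.3% of all genes did not overlap). Fmo2 was at 635 ± 80.0 CPM under HDM and 844 ± 130.1 CPM under VEH, a log2 difference of -0.41 ± 0.71 (adjusted p = 1). The 3 smallest unadjusted p-values for lower levels were those of Gstp1, Gstm5 and Aldh1a2, at -0.41 ± 0.20 (adjusted p = 0.887), -0.51 ± 0.27 (adjusted p = 0.889) and -1.14 ± 0.83 (adjusted p = 0.949). For higher levels they were those of Aldh1b1, Cyp4f16 and Cyp4v3, at 1.01 ± 0.63 (adjusted p = 0.91), 0.31 ± 0.25 (adjusted p = 0.957) and 0.35 ± 0.30 (adjusted p = 0.961). For Cyp2f2 the value was -0.29 ± 1.29 (adjusted p = 1).

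In tumours, edgeR called 0 members between HDM and VEH (0.0946% of all genes), although 60 of the 80 had lower fitted levels under HDM, with a median of -1.02 against -0.03 for all genes. An unadjusted p below 0.05 was found for 30 members and for 3698 of all 22190 genes. Libraries did not overlap for 13 members (22% of all genes), of which 11 were lower under HDM and Gstm5 and Ugt1a7c higher. Aldh3a1 had the smallest p, at -6.18 ± 1.30 (adjusted p = 0.117), followed by Gstm6 at -5.59 ± 1.39 (adjusted p = 0.155) and Cyp2j9 at -1.91 ± 0.56 (adjusted p = 0.188), the Gstm6 value being fitted over HDM tumours at the counting floor, against which it was at least 12.6-fold lower. The smallest p-values for higher levels were those of Gstm5 (0.54 ± 0.28, adjusted p = 0.345), Cyp2d22 (0.83 ± 0.41, adjusted p = 0.329) and Cyp4f13 (0.51 ± 0.25, adjusted p = 0.33). DESeq2 called 18 members, all lower under HDM (4.96% of all genes it tested were called lower), among them Aldh3a1, Cyp2f2, Gstm6, Cyp1a1, Gsta3, Aldh1a1 and Fmo1.

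These tumour differences were smaller without tumour VEH 2. The median of the members was then -0.39, and DESeq2 called 2 members, Aldh3a1 and Gstm6 (1.55% of all genes were called lower). The interaction term, which compares the tumour-normal difference between treatments, called 0 members by edgeR (0% of all genes), with a median of -1.08, or -0.32 without tumour VEH 2. An unadjusted p below 0.05 was found for 13 members and for 2084 of all 22190 genes. By DESeq2 the interaction called 2 members, Aldh3a1 and Gstm6, both below 0 (0.852% of all genes), and 1, Aldh3a1, without tumour VEH 2 (0.534%). Aldh3a1 was at 1.02, 24.7 and 6.27 CPM in the VEH tumours and 0.246, 0.205 and 0 CPM in the HDM tumours, so the groups did not overlap. Its interaction value by edgeR was -6.45 ± 1.59 (adjusted p = 0.417). Other members with the smallest interaction p were Gstm6 (-5.89 ± 1.68, adjusted p = 0.472, fitted over the same floor) and Cyp2j9 (-2.27 ± 0.71, adjusted p = 0.478) below 0, and Gstm5 (1.05 ± 0.39, adjusted p = 0.505), Aldh1a2 (2.14 ± 1.23, adjusted p = 0.574) and Cyp1b1 (0.96 ± 0.80, adjusted p = 0.691) above 0.

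In 6 families the median level was highest, among tumours, in tumour VEH 2. The median level of the members, each as a percentage of its normal-lung median, was 7.33%, 31.6% and 13.9% in tumour VEH 1, 2 and 3, and 8.10%, 10.8% and 6.25% in tumour HDM 1, 2 and 3. These medians are over the 78 members with a normal median of at least 1 CPM, without Fmo6, at 774% in tumour VEH 2 and 311% in tumour HDM 3, and Gstm3, at 68.4% and 0%. In these 6 families the value in tumour VEH 2 ran from 15.8% for Fmo (5 genes) to 50.5% for Aldh. The 2 Ugt genes ran the other way, at 64.5% in tumour VEH 2, the lowest of the tumours, and 417% in tumour HDM 3, the highest. In tumour HDM 3 the median percentage over the genes of a family was 0.511% for Fmo and 2.53% for Cyp, but 18.8% for Aldh and 6.28% for Gst. The Ces median of 0.00321% in that tumour is set by genes with no count and by the 2 counts of Ces1d, and the summed Ces level was 0.667 CPM there against a median of 1032.5 CPM in normal lung. Markers of several cell types of the lung were also higher in tumour VEH 2 than in tumour HDM 3. The summed club-cell level was 21783 and 15.3 CPM, both below the lowest normal library. The median percentage over 11 club-cell markers was 949% and 0.378% in these tumours, and it reached 1446% in normal HDM 2. For 12 ciliated-cell markers it was 64.6% in tumour VEH 2 and 0.0269% in tumour HDM 3, for 11 alveolar type 2 markers 32.8% and 0.0469%, and for 13 endothelial markers 20.2% and 3.07%. Other lists ran the opposite way: 12 fibroblast markers were at 42.7% in tumour VEH 2 and 113% in tumour HDM 3, and 10 macrophage markers at 121% and 253%. The 8 mesothelial markers were at 5.84% and 3.09%, and highest among tumours in tumour HDM 2, at 11.7%. Scgb1a1, the defining club-cell marker, was at 97559, 23837 and 78318 CPM under VEH and 21507, 50964 and 53358 CPM under HDM in normal lung and 385, 16272 and 5354 CPM under VEH and 597, 1043 and 2.27 CPM under HDM in tumours. The part of these cell types in the member levels was not tested.

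**Figure D4:**
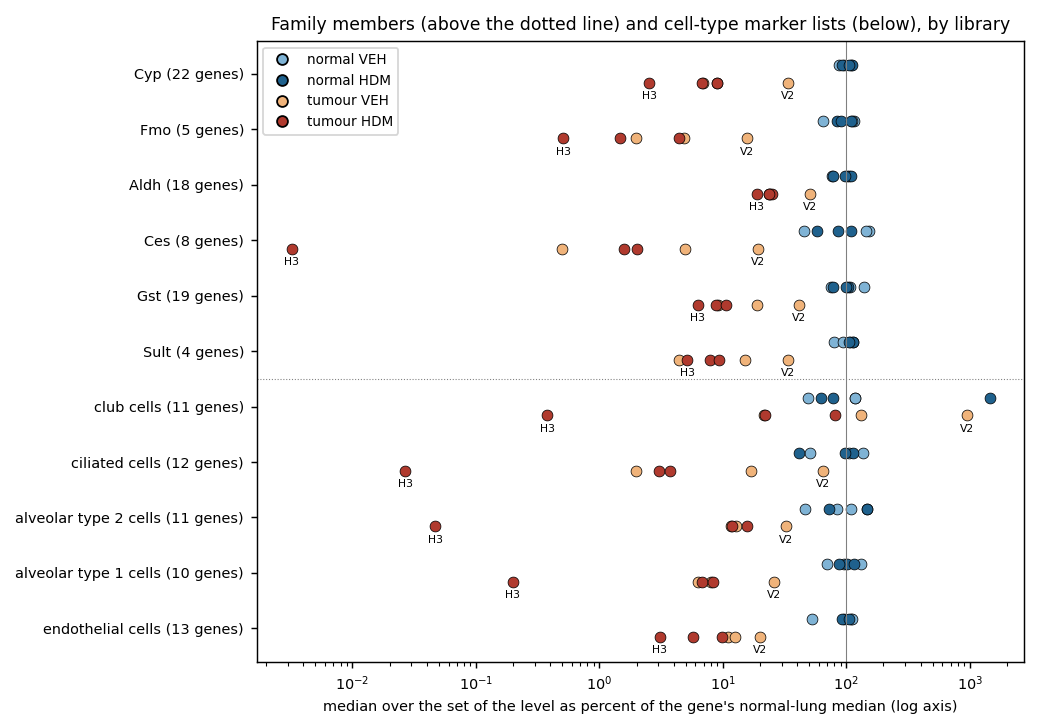
For 6 families and 5 marker lists, each point is 1 library: the median over the set's genes of the level as a percentage of the gene's normal-lung median, on a log axis, with normal libraries above and tumours below each row's line and V2 and H3 marking tumour VEH 2 and tumour HDM 3. In every family row V2 is the rightmost tumour, and in every row but Sult H3 is the leftmost, at 0.0269% for ciliated cells and down to 0.00321% for Ces. Genes with a normal median under 1 CPM are left out, and the Ugt family is not drawn.

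Members of the same family, and often of the same gene cluster, stood in tumours at different percentages of their level in normal lung. Ratios between relatives within 1 library are given as log2 ratios of CPM with 0.1 added to each, and this addition sets the value where a gene had no count. Gstm1 over Gstm5 was 5.55 to 6.85 in normal lung and 2.50 to 5.51 in tumours, so all 6 tumours were lower, tumour VEH 2 by the least. Cyp4f15 over Cyp4f16 (-2.45 to 0.408 against -7.69 to -2.08) and Aldh3a1 over Aldh3a2 (-2.89 to -0.804 against -9.15 to -0.986) overlapped through tumour VEH 2, and their lowest values belong to tumour HDM 3, with no count of Cyp4f15 or Aldh3a1.

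**Figure D5:**
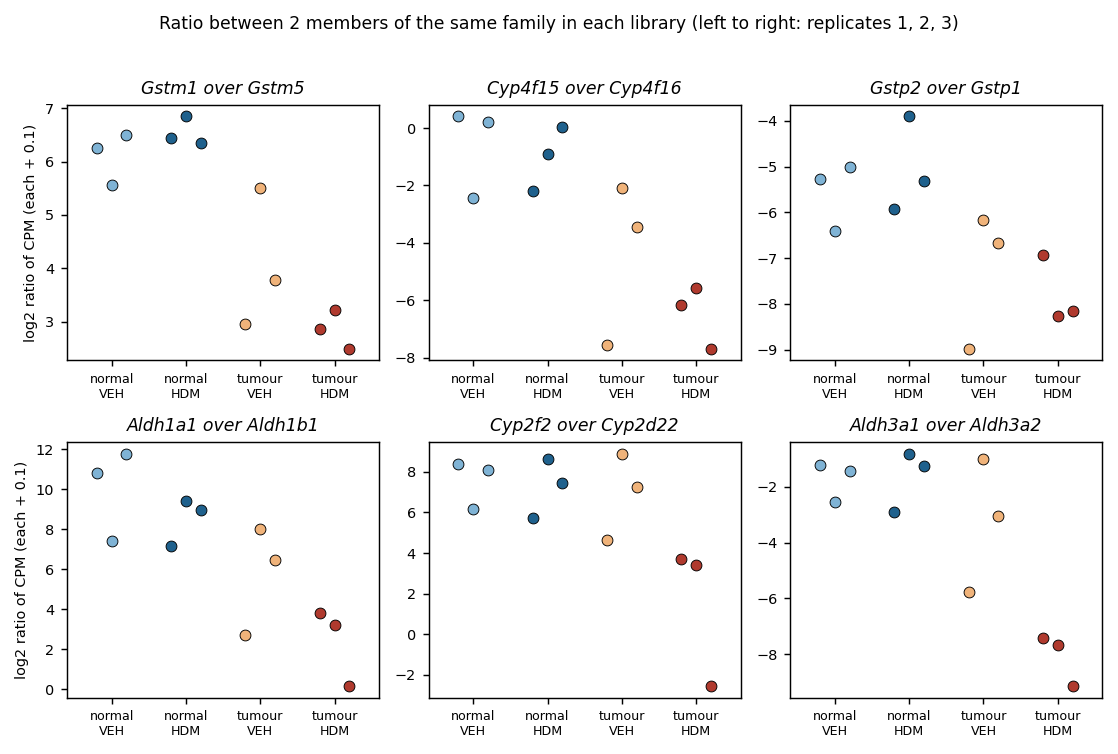
Log2 ratio of CPM (0.1 added to each) between 2 members of the same family in each library, with replicates 1, 2 and 3 from left to right in each of the 4 groups; the ratio compares libraries and, since gene length is not removed, not the levels of the 2 genes. For Gstm1 over Gstm5 the HDM tumours lie at 2.50 to 3.22 and the normal libraries at 5.55 to 6.85.

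By position, 48 members lie in 15 groups of relatives less than 500 kb apart on GRCm39. The largest is the Gstm cluster (chr3:107803137-107952210), where 5 of 7 members fell under VEH and 6 under HDM, with HDM fold changes from -3.73 for Gstm7 to -0.14 for Gstm5 beside Gstm3 and Gstm6, which were at the counting floor. In the Ces1 cluster (chr8:93780578-94063953) 3 of 5 fell under VEH and 5 under HDM, where Ces1g was at the floor and the other 4 ran from -7.88 to -4.77. The Ces2 cluster (chr8:105558204-105696169) and the Gstt cluster (chr10:75609940-75673258) fell whole, 3 of 3 each in both comparisons. In the Fmo cluster (chr1:162620757-162812097) Fmo1, Fmo2 and Fmo4 fell in both, and Fmo6 lay among them at 2.18 and 0.83. The Cyp4f cluster (chr17:32671694-33166434) held HDM fold changes from -6.52 for Cyp4f15 to -0.48 for Cyp4f16, with 3 of 5 called. At the Gsto pair (chr19:47842686-47874763) 0 of 2 were called. These cluster counts are descriptions beside the 20.6% of all genes called lower under VEH and the 28.9% under HDM.

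The proteins that work with these enzymes moved unevenly. Over all genes tested, 38.9% were called in either direction under VEH and 51.9% under HDM, and the counts below are descriptions beside these shares. Of 9 electron donors and P450 partners, 4 fell and 1 rose under each treatment, the riser being Cyb5r1 under VEH (0.61) and Hmox1 under HDM. Por, which passes electrons to every microsomal P450, fell from 568 ± 212 to 194 ± 55.9 CPM under VEH (-1.55 ± 0.38, adjusted p = 0.00936) and from 557 ± 249 to 138 ± 25.2 CPM under HDM (-2.01 ± 0.38, adjusted p = 0.00175). Cyb5a and Pgrmc1 fell, with log2 fold changes of -2.12 and -1.87 under VEH and -2.17 and -2.07 under HDM, while Cyb5b and Pgrmc2 were not called. Hmox1, the haem-degrading enzyme, rose under HDM (2.09 ± 0.47, adjusted p = 0.00439) and not under VEH (-0.02 ± 0.45, adjusted p = 0.968), a difference the interaction did not call (adjusted p = 0.478). Of 15 sensors, 5 fell and 1 rose under VEH, and 5 fell and 4 rose under HDM, near the shares of all genes. Ahr fell, with log2 fold changes of -1.88 ± 0.30 (adjusted p = 0.0013) under VEH and -2.83 ± 0.31 (adjusted p = 0.000132) under HDM, Rxra with -0.82 and -1.25, and Nr1i2, which encodes PXR, under HDM (-5.68 ± 1.43, adjusted p = 0.00752). Nfe2l2, which encodes NRF2, and its inhibitor Keap1 were not called, with all 4 fold changes between -0.31 and 0.08.

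Among 24 other phase I enzymes in the table, 16 fell and 0 rose under VEH, and 19 fell and 1 rose under HDM, with medians of -2.09 and -2.24. Over all genes tested, 20.6% were called lower under VEH and 28.9% under HDM. Cbr2, a lung carbonyl reductase, was abundant in normal lung, at 11537, 3366 and 9679 CPM under VEH and 3898, 8201 and 7011 CPM under HDM in normal lung and 52.0, 1793 and 429.7 CPM under VEH and 75.2, 99.7 and 72.2 CPM under HDM in tumours. Ephx1, which hydrolyses epoxides made by P450s, fell, with log2 fold changes of -2.60 ± 0.50 (adjusted p = 0.00334) under VEH and -4.06 ± 0.54 (adjusted p = 0.000296) under HDM. Akr1b8 rose under HDM (1.37 ± 0.36, adjusted p = 0.00874). Of 11 other conjugation enzymes tested, 5 fell and 0 rose under VEH, and 4 fell and 1 rose under HDM, among them Mgst1 (-2.72 and -4.78) and Inmt (-4.33 and -7.32). Of 14 genes of cosubstrate supply, 5 fell and 2 rose under VEH, and 4 fell and 4 rose under HDM, with medians of 0.01 and 0.32. Over all genes, 38.9% and 51.9% were called in either direction. The 2 enzymes that make the sulfate donor went apart: Papss1 rose by 1.40 ± 0.22 (adjusted p = 0.00121) and 1.68 ± 0.22 (adjusted p = 0.000266), and Papss2 fell, with log2 fold changes of -2.36 ± 0.32 (adjusted p = 0.000621) under VEH and -3.16 ± 0.33 (adjusted p = 0.00011) under HDM. Ugdh, which makes the glucuronic acid donor, rose by 0.76 and 1.49, and Gclc, the enzyme that limits glutathione synthesis, fell, with log2 fold changes of -1.37 and -2.19.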

How the data were processed

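RNA of 12 tissue pieces was sequenced, and the authors deposited 1 table of gene-level read counts, not normalised. The submitters' processing notes name Trim Galore, STAR, featureCounts, Subread and mm39, without versions. Per the labels' protocols, libraries were stranded (dUTP), and whether counting used the strand is not given in the sources used here. Of 78298 gene identifiers, 78168 matched GENCODE M39 (GRCm39), and the 130 others held 0.143% of counts.

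Counts were fitted with edgeR 4.0.16 (R 4.3.3): TMM scaling, filterByExpr with a minimum count of 10, 1 model over all 12 libraries, the robust quasi-likelihood F-test and Benjamini-Hochberg adjustment over 22190 genes, with calls at an adjusted p below 0.05. All 80 members passed the filter. Standard errors were derived from the F statistic, as the size of a log2 fold change over the root of its F. DESeq2 1.42.0 served as an alternative, and the model was tested on simulated data. Library totals of 20608682 to 32765364 counts put the floor of 3 counts near 0.1 CPM, which covers counting error only.

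The members, gene lists and tests were chosen with earlier results of these data known. Members named with full statistics were, per family, the up to 3 most abundant per kilobase; per tumour-normal comparison, the up to 5 largest rises and falls among calls without overlap; in the other comparisons, the 3 smallest p-values in each direction; members higher in both comparisons; and any gene of the 5 pathway lists and the marker lists. Other members are named only to account for the families; 1 member and 1 gene of the pathway lists are not reported here.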

Additional observations from a re-analysis of the deposited data

How the results depend on the processing

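The count of members called between tumour and normal lung was 50 under VEH and 65 under HDM. Other scalings, filters on low counts, a fit on the compared groups alone and DESeq2's Wald test gave 35 to 59 under VEH and 62 to 66 under HDM. The 35 came from the fit with no filter, where 6848 of 40856 genes were called, and the 59 from DESeq2, with 10379 of 22190. The 62 came with a mean CPM of at least 1, where 10189 of 18125 genes were called. Leaving out 1 library gave 26 (without tumour VEH 3) to 58 (without tumour VEH 2) under VEH, 31 without tumour VEH 1, and 60 to 62 under HDM. Without tumour VEH 2, 9070 of 23158 genes were called, and the HDM calls over all genes ran from 9822 of 23096 to 10695 of 22993. With the replicate number as a block the member counts were 43 and 66, and 7830 and 11001 of all 22190 genes were called. With the library-name prefix as a block the member counts were 29 and 56, and without the 4 libraries of conflicting prefixes 22 and 47, where fewer samples enter the fit. The calls over all genes fell too, from 8624 (VEH) and 11512 (HDM) of 22190 to 5783 and 8631 of 22190 with the prefix block. Without the 4 libraries they were 5603 and 8505 of 22414. Under VEH they were 5947 of 23174 without tumour VEH 3 and 5733 of 23204 without tumour VEH 1. Neither numbers nor prefixes were shown to pair the libraries: correlations of deviations ran from -0.355 to 0.303 for shared numbers and from -0.219 to 0.179 for shared prefixes. Between HDM and VEH in tumours, DESeq2 called 18 members and, in an alternative chosen after seeing the data, 2 without tumour VEH 2, where edgeR called 0 throughout; for the interaction it called 2 and then 1. The cause of these differences between tools was not tested.

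Of the named members' values, 479 under VEH and 550 under HDM kept their direction and side of the threshold, 75 and 19 lost the call, 18 and 9 gained it, and 12 and 6 changed sign. None of the sign changes concerned a value that was called. Under VEH they were Cyp4f16 at 0.0018 without the 4 libraries of conflicting prefixes, Gsto1 at -0.0233 with the replicate block, and Ugt1a7c at 0.12 with that block, 2.34 with the prefix block and 2.78 without the 4 libraries. Leaving out 1 library, VEH values ran from -0.12 to 1.38 for Aldh1b1, from -0.32 to 0.41 for Gsto1, from -2.85 to 0.24 for Sult1d1 and from -1.07 to 3.03 for Ugt1a7c. Under HDM, Gstm5 was at 0.035 with library size only, 0.0289 with the prefix block and 0.21 without the 4 libraries, and between -0.21 and 0.10 leaving out 1 library. The cause was not tested. At these depths, members below 1 CPM in tumours rest on few counts.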
